A study of Homo sapiens with 7 samples.

Results

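The 46 genes described here encode the human proteasome, its regulators and its assembly factors. They were chosen by symbol alone: every gene in the deposited table whose symbol is PSM, a letter from A to G and a number was a member, which gave 46 of 21305 genes. All 46 had a mean normalized count of at least 10 over the 7 libraries, so all 46 were among the 15420 genes tested. By role, they comprised 7 alpha ring subunits, 4 structural beta subunits, 3 constitutive catalytic beta subunits and 3 immunoproteasome catalytic subunits of the 20S core, 6 ATPases and 3 other base subunits and 8 lid subunits of the 19S cap, 5 activators or inhibitors, and 7 assembly chaperones. The symbols PSMA8 and PSMB11, a testis and a thymus subunit, were not analysed here.

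The proteasome is the protease complex that degrades ubiquitin-tagged proteins. Its barrel-shaped core holds the catalytic sites, and a cap recognises the ubiquitin chain, unfolds the substrate and feeds it into the barrel. Under interferon-gamma, cells exchange the constitutive catalytic subunits PSMB5, PSMB6 and PSMB7 for PSMB8, PSMB9 and PSMB10, and the resulting immunoproteasome favours peptides that fit MHC class I molecules.

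RNA was sequenced from 501Mel, an established human melanoma line, in which stable lentiviral integration supplied a short hairpin RNA (shRNA) that doxycycline switches on. The hairpin was directed against the bacterial gene lacZ in the control group (shlacZ, n = 3), and sh4 (n = 2) and sh8 (n = 2) were directed against the long non-coding RNA GRASLND. All 7 libraries came from doxycycline-induced cells, so doxycycline and hairpin expression were shared by control and knockdown, and the study's methods give 3 days between induction and harvest for sequencing. The labels name no interferon-gamma treatment, and they do not say whether replicates came from separate cultures, so p-values measure only the spread between these libraries.

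GRASLND itself had a normalized count of 309 ± 20.1 in shlacZ (SD, n = 3), 153 ± 30.9 under sh4 (SD, n = 2) and 195 ± 45.1 under sh8 (SD, n = 2). The fall passed the test under sh4 (limma, adjusted p = 0.0066) and not under sh8 (adjusted p = 0.11), although every knockdown library lay below every control library. The whole reads recovered from the table ranged from 13337317 to 22855232 per library. These are reads counted in genes and not the sequencing depth, for which the paper gives a higher number per sample. All 7 melanocytic lineage genes listed were detected, with sums from 135600 to 146300 normalized counts in shlacZ, from 51870 to 59740 under sh4 and from 101500 to 104500 under sh8. Of 10 haematopoietic marker genes, 8 were not in the table, including PTPRC, and the sum of the remaining 2, mostly CD68, ranged from 442.6 to 675 over the libraries. Singly, 6 of the 7 passed as lower under sh4 (limma, adjusted p under 0.05), against 11.9% of all genes tested, and 0 under sh8, against 1.54%. TYR did not fall, with 8192 to 9420 in shlacZ, 9183 to 10290 under sh4 and 9200 to 11310 under sh8. The part of the melanocytic shift in any proteasome value was not tested. In bulk RNA, fewer cells of a type and less RNA per cell cannot be told apart.

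A gene passed the test at an adjusted p (Benjamini-Hochberg, over all 15420 genes) under 0.05 in limma on log2(normalized count + 1). With both hairpins pooled (n = 4) against shlacZ (n = 3), PSMG1 was the single proteasome gene of 46 that was lower, against 2.06% of all genes tested, and 0 of 46 were higher, against 2.55%. Under sh4 alone, PSMG1 was lower, against 11.9% of all genes, and PSMD9 was higher, against 10.5%. Under sh8 alone, 0 were lower, against 1.54%, and 0 were higher, against 1.38%. Between sh4 and sh8, 0 were higher under sh4, against 3.67%, and 0 were lower, against 3.33%.

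Where the limma count was 0, the count at an unadjusted p under 0.05 was 1 gene higher (PSMD9) in the pooled comparison against 11.2% of all genes. Under sh8 it was 3 genes lower (PSMD4, PSMG1 and PSMG3) against 9.69% and 0 higher against 8.85%. Between the hairpins it was 0 higher and 0 lower against 11.3% in each direction. A second method, limma-voom on the recovered reads, also gave 0 at an adjusted p under 0.05 in each of these comparisons and directions. Its counts at an unadjusted p are not given. No proteasome gene combined an adjusted p under 0.05 with a log2 fold change beyond 1 in either direction, a condition met by 1.99% of all genes in the pooled comparison, 8.16% under sh4 and 1.15% under sh8. This 0 depended on single libraries, since PSMG1 under sh4 met both conditions without shlacZ replicate 1 (log2 fold change -1.01, limma adjusted p = 0.0010) and without sh4 replicate 2 (-1.09, adjusted p = 0.016).

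**Figure D1:**
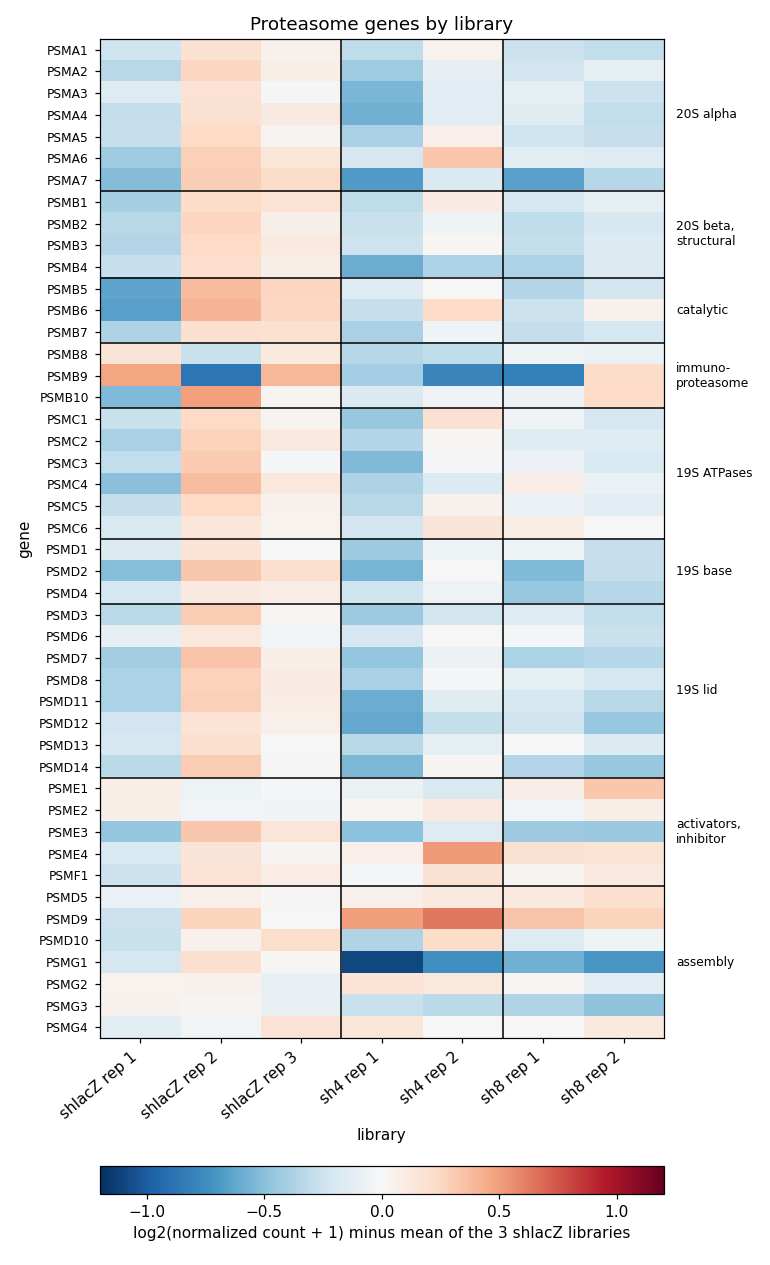
Colour gives log2(normalized count + 1) of each of the 46 proteasome genes (rows, grouped by role) in each of the 7 libraries (columns), minus the mean of the 3 shlacZ libraries. Replicate 1 of shlacZ is lower than the other control libraries in 40 of 46 rows, PSMG1 is low in all 4 knockdown libraries, and in PSMB8 and PSMB9 the lowest control library is replicate 2.

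Within the control group, replicate 1 stood apart for the proteasome, although its total of 16304553 recovered reads lay inside the range of the other libraries. It was lower than both other shlacZ libraries for 40 of 46 members, against 44.8% of all genes tested, and for 31 of 31 constitutive 20S and 19S subunits. The log2 difference between replicate 1 and the mean of the other control libraries had a median of -0.49 over these 31 genes, from -0.98 to -0.14, whereas its median over all tested genes was -0.03. Together the 31 genes took 0.273% of all normalized counts in replicate 1, 0.364% in replicate 2 and 0.336% in replicate 3 of shlacZ. Under sh4 their share was 0.262% and 0.325%, and under sh8 it was 0.279% and 0.274%. Replicate 1 of shlacZ thus lay within the range of the knockdown libraries, and the groups overlapped. Replicate 1 of sh4 was also lower than replicate 2 of sh4 for 31 of 31 of these genes, against 54.4% of all genes tested.

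All 4 knockdown libraries lay below shlacZ replicates 2 and 3 for 24 of the 31 constitutive subunits, against 22.9% of all genes tested, but below all 3 controls for 1 of them. Replicate 1 was the lowest control for all 31 of these genes, against 44.8% of all genes tested. Setting it aside therefore favours the count of 24, and the 22.9% is not a like comparison. Over the 46 members, 3 were lower in every knockdown library than in every control library (PSMD12, PSMG1 and PSMG3), against 11% of all genes, and 2 were higher (PSMD5 and PSMD9), against 10.2%. With sh4 alone, 6 members were lower than every control and 3 higher, beside 3945 and 3864 of all 15420 genes tested. With sh8 alone it was also 6 and 3, beside 2762 and 2549. Such a separation of 1 hairpin, given below for single genes, is thus common among all genes. Because shlacZ replicate 1 stood apart, each comparison is given below with and without it, a choice made after the values were seen.

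With all libraries, the log2 fold change was below 0 for 37 of 46 members in the pooled comparison, 38 under sh4 and 36 under sh8. Of all genes tested, 50.6%, 50.6% and 51.2% were below 0 in the same order. The median over the members was -0.19, -0.17 and -0.16 in the same order, beside -0.01 in each of the 3 comparisons over all genes tested. Under 3 other scalings of the libraries the count below 0 ranged from 34 to 37. The 3 comparisons share the control libraries. Leaving out any 1 library kept the median below 0 in each, from -0.34 to -0.06 in the pooled comparison, from -0.35 to -0.02 under sh4 and from -0.34 to -0.08 under sh8. The count below 0 under sh4 fell to 25 of 46 without sh4 replicate 1.

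Without shlacZ replicate 1, 3 members passed as lower in the pooled comparison, against 2.2% of all genes. Under sh4 it was 14 members, against 17.2%, and under sh8 it was 7 members, against 5.75%. None passed as higher. Replicate 1 was the lowest control for 40 members, against 44.8% of all genes tested. Leaving it out therefore favours lower calls among the members, and these shares of all genes are not a like comparison. The 14 under sh4 were PSMA2, PSMA4, PSMA7, PSMB4, PSMB5, PSMB7, PSMC4, PSMD2, PSMD3, PSMD7, PSMD11, PSMD12, PSME3 and PSMG1, with log2 fold changes from -1.01 to -0.39. The 7 under sh8 were PSMA7, PSMB5, PSMD2, PSMD4, PSMD7, PSME3 and PSMG1, with log2 fold changes from -0.75 to -0.50. The cause of the difference between control libraries was not tested.

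**Figure D2:**
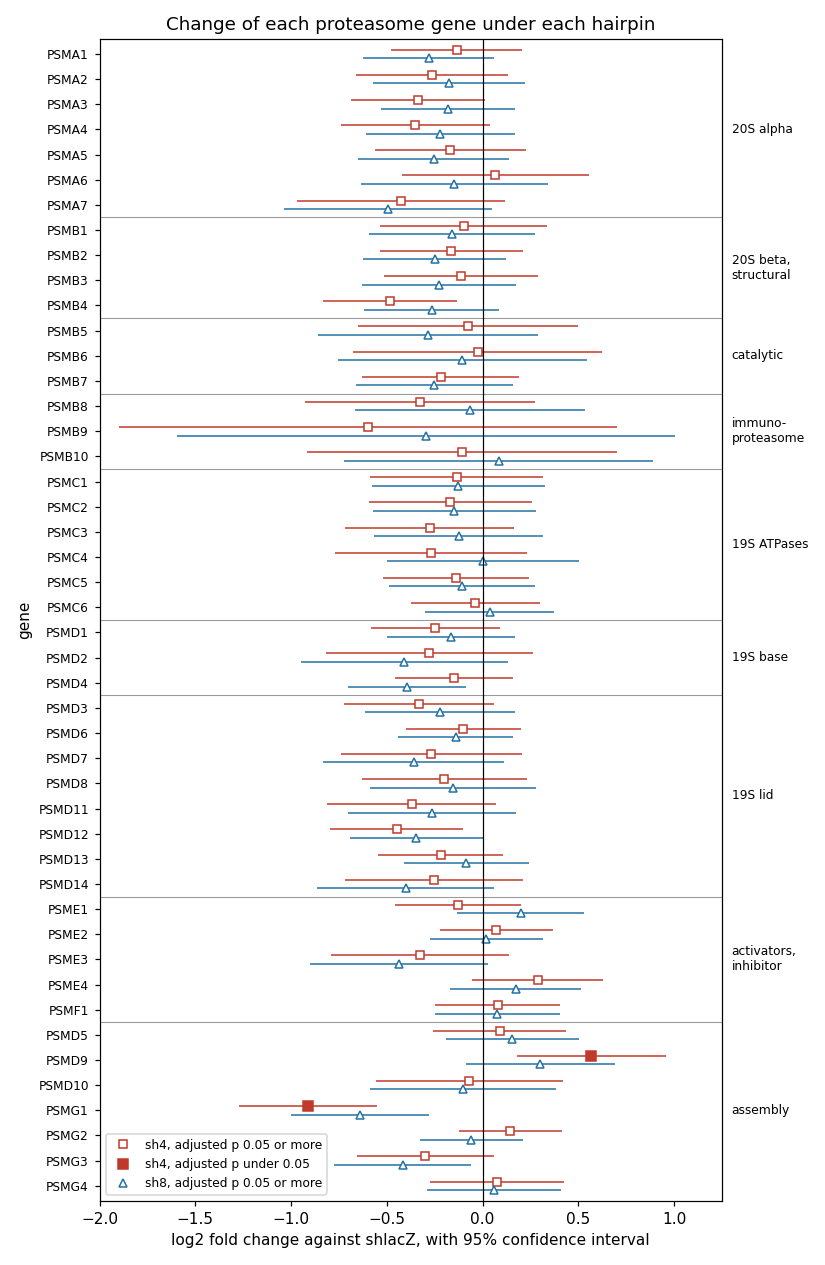
Log2 fold change against shlacZ with its 95% confidence interval (limma, 3 groups) for each proteasome gene under sh4 (squares) and sh8 (triangles); filled symbols passed at an adjusted p under 0.05. PSMG1 and PSMD9 under sh4 are the filled symbols, and most of the remaining estimates lie between -0.5 and 0.

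The alpha ring forms the outer faces of the barrel and its gate. Of its 7 genes, 0 passed in any comparison, and the log2 fold changes ran from -0.43 (PSMA7) to 0.07 (PSMA6) under sh4 and from -0.49 (PSMA7) to -0.15 (PSMA6) under sh8. PSMA7 had the highest level per kilobase of exon of all 46 genes in the control, 1912 normalized counts. PSMA7 had normalized counts of 2265, 3988 and 3796 in shlacZ, 2031 and 2879 under sh4 and 2072 and 2566 under sh8. The low control library fell among the knockdown libraries, and the other controls lay above all of them.

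The 4 structural beta subunits carry no active site. None passed, and the estimates lay from -0.48 (PSMB4) to -0.10 (PSMB1) under sh4 and from -0.27 (PSMB4) to -0.16 (PSMB1) under sh8. PSMB4 came close to the threshold under sh4, with an adjusted p of 0.052 in limma. Its normalized counts were 2137, 2987 and 2708 in shlacZ and 1708 and 2000.2 under sh4, without overlap, and 2004 and 2310 under sh8, which overlapped the control.

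The constitutive catalytic subunits were PSMB5 (chymotrypsin-like activity, ENSG00000100804, hg38 chromosome 14, 23016543 to 23035230), PSMB6 (caspase-like activity, ENSG00000142507, chromosome 17, 4796144 to 4798502) and PSMB7 (trypsin-like activity, ENSG00000136930, chromosome 9, 124353465 to 124415444). PSMB5 had normalized counts of 526, 1066 and 976 in shlacZ, 736 and 819 under sh4, and 641 and 703 under sh8. PSMB6 had 322, 670.3 and 601 in shlacZ, 418 and 593 under sh4, and 423 and 523 under sh8. PSMB7 had 1138, 1678 and 1671 in shlacZ, 1126 and 1421 under sh4, and 1206 and 1269 under sh8. For all 3 genes the control libraries spanned a wider range than the knockdown libraries, and the groups overlapped.

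None of the 3 passed. The log2 fold changes under sh4 were -0.08 for PSMB5 (95% interval -0.65 to 0.50), -0.02 for PSMB6 (-0.67 to 0.63) and -0.22 for PSMB7 (-0.63 to 0.19). Under sh8 they were -0.29 for PSMB5 (-0.86 to 0.29), -0.11 for PSMB6 (-0.76 to 0.54) and -0.25 for PSMB7 (-0.66 to 0.16). Without shlacZ replicate 1, PSMB5 passed as lower under both hairpins (limma, log2 fold change -0.39 with adjusted p = 0.041 under sh4, and -0.60 with adjusted p = 0.020 under sh8), and PSMB7 passed under sh4 (-0.40, adjusted p = 0.041). Replicate 1 was the lowest control for both genes, so leaving it out favours these calls.

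The immunoproteasome subunits were PSMB8 (ENSG00000204264, hg38 chromosome 6, 32840717 to 32844679, minus strand), PSMB9 (ENSG00000240065, chromosome 6, 32844136 to 32859851, plus strand) and PSMB10 (ENSG00000205220, chromosome 16, 67934506 to 67936864, minus strand). They replace PSMB5, PSMB6 and PSMB7 in that order. PSMB8 and PSMB9 lie side by side in the MHC class II region, and their annotated spans overlap on opposite strands. All 3 had low counts in these libraries, and PSMB9 rested on 5 to 19 reads per library, so counting error limits what can be seen for it.

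PSMB8 had normalized counts of 57.8, 42.9 and 56.5 in shlacZ, 40.7 and 41.8 under sh4, and 50.1 and 49.1 under sh8. The sh4 libraries lay just below the lowest control library, and the sh8 libraries lay within the control range. PSMB9 had 17.5, 6.28 and 16.5 in shlacZ, 9.03 and 6.72 under sh4, and 6.59 and 14.6 under sh8, so the groups overlapped. PSMB10 had 22.7, 47.1 and 33.9 in shlacZ, 29.4 and 32.1 under sh4, and 31.6 and 39.1 under sh8, with every knockdown library inside the control range. A protein-coding gene of the same strand, ENSG00000261884, overlaps PSMB10 and had a mean normalized count of 38.7, beside 33.7 for PSMB10. How reads from the overlap were divided is not known, so the level and share of PSMB10 are uncertain.

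The immunoproteasome genes were not shown to change under either hairpin. Under sh4 the log2 fold change was -0.33 for PSMB8 (95% interval -0.93 to 0.28, limma adjusted p = 0.42), -0.60 for PSMB9 (-1.90 to 0.70, adjusted p = 0.50) and -0.11 for PSMB10 (-0.92 to 0.70, adjusted p = 0.87). Under sh8 it was -0.07 for PSMB8 (-0.67 to 0.54, adjusted p = 0.92), -0.29 for PSMB9 (-1.60 to 1.01, adjusted p = 0.83) and 0.08 for PSMB10 (-0.72 to 0.89, adjusted p = 0.93). The interval for PSMB9 includes a change beyond 1 on the log2 scale in either direction under sh8 and a fall of that size under sh4. None of the 3 passed without shlacZ replicate 1.

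Control replicate 1, in which the constitutive subunits were lowest, had the highest PSMB8 and PSMB9 counts of the 3 controls and the lowest PSMB10 count. To compare levels between genes, normalized counts were divided by the exon length of each gene. On that scale the control means were 553 per kilobase for PSMB5, 367 for PSMB6 and 837 for PSMB7, and 15.1 for PSMB8, 4.03 for PSMB9 and 21.3 for PSMB10. Per length, PSMB8 made up 2.98% ± 1.5 of PSMB8 plus PSMB5 in shlacZ (SD, n = 3), 2.31% ± 0.125 under sh4 (SD, n = 2) and 3.19% ± 0.246 under sh8 (SD, n = 2). The PSMB8 share was 4.66% in shlacZ replicate 1 and from 1.76% to 3.36% in the other 6 libraries.

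PSMB9 made up 1.3% ± 0.957 of PSMB9 plus PSMB6 in shlacZ, 0.708% ± 0.311 under sh4 and 0.931% ± 0.369 under sh8. PSMB10 made up 2.44% ± 0.480 of PSMB10 plus PSMB7 in shlacZ, 2.61% ± 0.258 under sh4 and 3.04% ± 0.337 under sh8. For all 3 shares the control libraries overlapped those of each hairpin. The PSMB8 and PSMB10 shares were higher in both sh8 libraries than in both sh4 libraries. For PSMB10 the gap was small, with 2.80% in sh8 replicate 1 and 2.79% in sh4 replicate 1. Such an order is common: by normalized count, sh4 lay wholly below sh8 for 4259 of all 15420 genes tested and wholly above for 4101. The length used for a gene matters here, since the exon length of PSMB8 and PSMB9 includes long alternative forms. With the canonical transcript, the PSMB8 share in shlacZ was 5.99% and the PSMB9 share 2.39%, while the PSMB10 share was 2.24%.

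**Figure D3:**
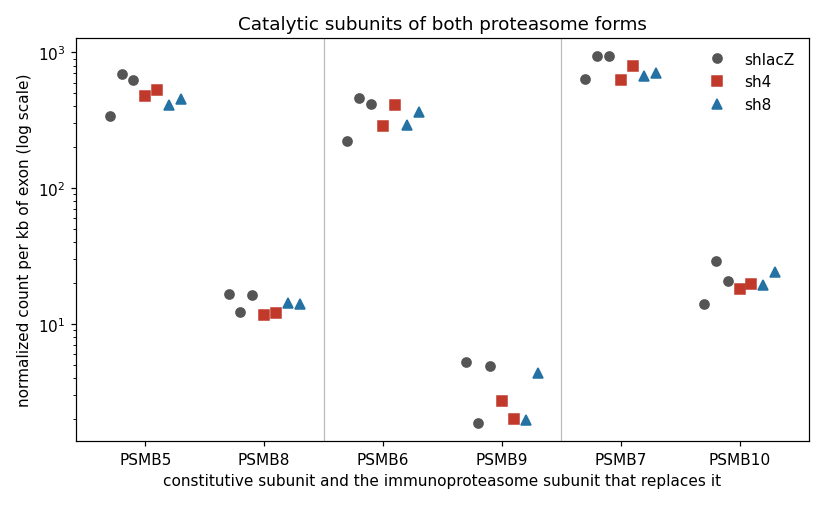
Normalized count per kilobase of exon (log axis) of each constitutive catalytic subunit beside the immunoproteasome subunit that replaces it, with 1 point per library (circles shlacZ, squares sh4, triangles sh8, in replicate order). Each constitutive gene lies far above its partner in every library, and the groups overlap for most genes.

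Promoter sequence was available for 40 of the 46 members in the RefSeq table for GRCh38.p14. The 250 bases before each annotated start were searched on both strands for the antioxidant response element TGACNNNGC, which NFE2L1 and related factors recognise, for the interferon-stimulated response element (TTTC, any 2 bases, TTTC) and for the gamma-activated site TTCNNNGAA bound by STAT dimers. The antioxidant element was found in 13 of 40 members (32.5%), beside 13.2% of all 27305 genes in the table. The matches were uneven over the roles, in 5 of 26 constitutive 20S and 19S subunits (19.2%), 1 of 3 immunoproteasome genes, 3 of 5 activators and inhibitors and 4 of 6 assembly chaperones. The interferon-stimulated element was found in 5 of 40 (12.5%), beside 3.71%, and the gamma-activated site in 6 of 40 (15%), beside 8.09%. A gene counted where any of its windows matched, and the 40 members had 49 windows. Windows per gene were not matched to those of all genes, so the shares are not a like comparison. These are matches of letters in a window and do not show binding.

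Upstream stretches of PSMB9 and PSMB10 are shown as examples from the immunoproteasome, with the matches in capitals. For PSMB9 the match is to the antioxidant element at -148, and for PSMB10 it is to the interferon-stimulated element at -21, written on the strand of the gene and counted from the RefSeq start.
PSMB9, chr6:32853942-32854141, plus strand: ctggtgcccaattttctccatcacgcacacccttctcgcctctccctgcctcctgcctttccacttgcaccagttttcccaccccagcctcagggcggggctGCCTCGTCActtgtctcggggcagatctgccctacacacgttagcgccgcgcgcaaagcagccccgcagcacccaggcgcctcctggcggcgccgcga
PSMB10, chr16:67936851-67936950, minus strand: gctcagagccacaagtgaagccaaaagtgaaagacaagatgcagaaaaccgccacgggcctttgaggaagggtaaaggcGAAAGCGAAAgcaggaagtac
In the windows of PSMB8 the gamma-activated letters were present and the interferon-stimulated letters were not.

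The 19S base ATPases PSMC1 to PSMC6 unfold the substrate. None of the 6 passed, with log2 fold changes from -0.28 (PSMC3) to -0.04 (PSMC6) under sh4 and from -0.15 (PSMC2) to 0.04 (PSMC6) under sh8. PSMC6 had a pooled log2 fold change of 0.00 (95% interval -0.30 to 0.30). The base subunits PSMD1 and PSMD2, which dock substrates and shuttles, and PSMD4, a ubiquitin receptor, also did not pass, with estimates from -0.28 to -0.15 under sh4 and from -0.41 to -0.17 under sh8.

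The 8 lid genes include PSMD14, the deubiquitinase that removes the ubiquitin chain. None passed, and all 8 estimates were below 0 in each comparison with shlacZ, from -0.45 (PSMD12) to -0.10 (PSMD6) under sh4 and from -0.40 (PSMD14) to -0.08 (PSMD13) under sh8. PSMD12 was the 1 constitutive subunit whose knockdown libraries all lay below all controls. Its normalized counts were 1731, 2280 and 2120.0 in shlacZ, 1325 and 1668 under sh4, and 1720.2 and 1484 under sh8. The gap between the lowest control and the highest knockdown library was small, and its pooled log2 fold change was -0.40 (limma, adjusted p = 0.12).

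Alternative activators cap the core in place of 19S. PSME1 and PSME2 form the interferon-inducible activator PA28, PSME3 the nuclear activator PA28 gamma, PSME4 is PA200, and PSMF1 is the inhibitor PI31. None of the 5 passed. PSME1 had normalized counts of 394, 356 and 368 in shlacZ, 353 and 328 under sh4, and 393 and 466 under sh8. The sh4 libraries lay just below the controls, and sh8 overlapped them. PSME2 had 516, 481 and 477 in shlacZ, 500.3 and 532 under sh4, and 478 and 518 under sh8, a range in which all groups overlapped.

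The log2 fold change of PSME1 was -0.13 under sh4 (95% interval -0.46 to 0.20) and 0.20 under sh8 (-0.13 to 0.53). For PSME2 it was 0.07 under sh4 (-0.22 to 0.37) and 0.02 under sh8 (-0.27 to 0.31). PSME3 gave -0.33 under sh4 and -0.44 under sh8, and passed as lower under both hairpins when shlacZ replicate 1 was left out (-0.56 with limma adjusted p = 0.010, and -0.67 with adjusted p = 0.015). Replicate 1 was the lowest control for PSME3 too, so leaving it out favours these calls. PSME4 and PSMF1 had estimates above 0 under both hairpins, from 0.08 to 0.29.

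The assembly chaperones held both genes that passed. PSMG1 (ENSG00000183527, hg38 chromosome 21, 39174769 to 39183488, minus strand) encodes PAC1, which pairs with PSMG2 to assemble the alpha ring. PSMG1 had normalized counts of 850.4, 1118 and 986 in shlacZ, 460 and 587 under sh4, and 655 and 602 under sh8. Every knockdown library was below every control library, and the sh4 libraries were below the sh8 libraries. PSMG1 fell by 0.91 on the log2 scale under sh4 (SE 0.16, 95% interval -1.27 to -0.55, limma adjusted p = 0.0037), from a mean of 985 ± 134 to 524 ± 90.3.

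With both hairpins pooled PSMG1 fell by 0.78 (SE 0.16, adjusted p = 0.028). Under sh8 its log2 fold change was -0.64 (95% interval -1.0 to -0.28, adjusted p = 0.069), and the difference between sh4 and sh8 was -0.27 (-0.67 to 0.12, adjusted p = 0.41). The call under sh4 held in each of 18 alternative fits, with adjusted p from 0.0010 to 0.047. The pooled call was lost without shlacZ replicate 2 (adjusted p = 0.15), without shlacZ replicate 3 (0.11), without sh4 replicate 1 (0.068) and without sh4 replicate 2 (0.052).

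PSMD9 (ENSG00000110801, hg38 chromosome 12, 121888732 to 121918297, plus strand) encodes a chaperone of the 19S base, known as p27. Its normalized counts were 273, 394 and 328 in shlacZ, 464 and 510 under sh4, and 415 and 394 under sh8. Both sh4 libraries were above all controls, and the lower sh8 library and the highest control nearly coincided. PSMD9 was higher by 0.57 on the log2 scale under sh4 (SE 0.17, 95% interval 0.18 to 0.96, limma adjusted p = 0.042), from a mean of 332 ± 60.3 to 487 ± 32.8.

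Under sh8 the log2 fold change of PSMD9 was 0.30 (95% interval -0.09 to 0.69, adjusted p = 0.40). The call under sh4 was lost in 9 of 18 alternative fits, among them those without sh4 replicate 1 (adjusted p = 0.13), sh4 replicate 2 (0.21), shlacZ replicate 1 (0.051), shlacZ replicate 3 (0.099) and either sh8 library (0.063). Its log2 fold change lay between 0.44 and 0.70 in all 18. A further annotated gene of the same strand, ENSG00000256950, overlaps PSMD9 and had a mean normalized count of 9.31.

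**Figure D4:**
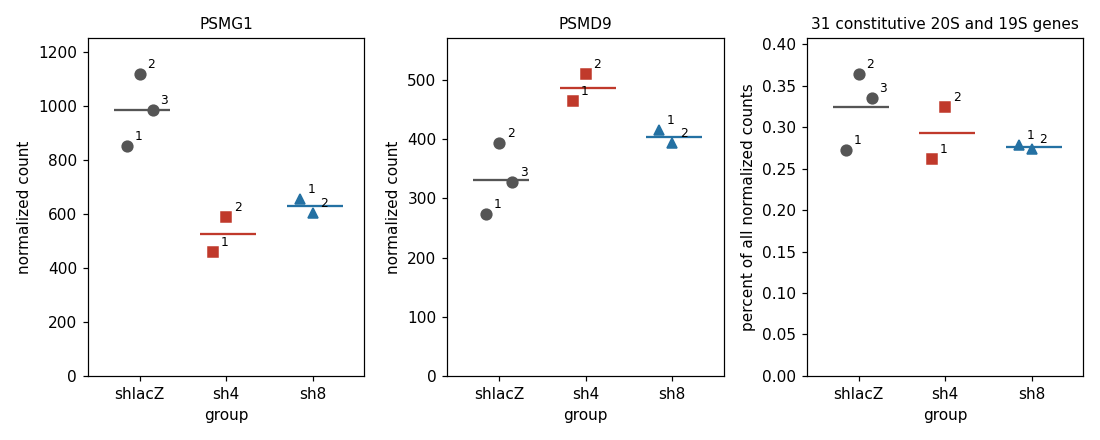
Normalized counts of PSMG1 and PSMD9, and the summed share of 31 constitutive 20S and 19S genes in all normalized counts (percent), in each library, with the replicate number beside each point and the group mean as a line. PSMG1 is below the controls in all 4 knockdown libraries and PSMD9 is above them under sh4, whereas the summed share of shlacZ replicate 1 lies among the knockdown libraries.

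The upstream stretches of the 2 genes that passed are shown with matches to the antioxidant element in capitals. PSMG1 has 1 match, at -183, and PSMD9 has 2, at -149 and -102. None of the 4 stretches holds the gamma-activated letters.
PSMG1, chr21:39183502-39183701, minus strand: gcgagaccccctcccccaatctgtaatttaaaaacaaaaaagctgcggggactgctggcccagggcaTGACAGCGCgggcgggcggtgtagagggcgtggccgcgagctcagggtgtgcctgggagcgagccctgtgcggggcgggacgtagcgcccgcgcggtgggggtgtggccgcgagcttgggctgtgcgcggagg
PSMD9, chr12:121888640-121888731, plus strand: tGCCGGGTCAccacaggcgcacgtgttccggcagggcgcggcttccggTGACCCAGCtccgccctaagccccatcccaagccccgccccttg
The element was also found in 11 other members.

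Among the other chaperones, PSMG2, the partner of PSMG1, had 1036, 1044 and 944 in shlacZ, 1125 and 1102 under sh4, and 1020.2 and 915 under sh8. The sh4 libraries lay above the controls, as they did for 3864 of all 15420 genes tested, and sh8 overlapped them. The log2 fold changes were 0.14 under sh4 (95% interval -0.12 to 0.41) and -0.06 under sh8 (-0.33 to 0.21). PSMG3, which pairs with PSMG4, had 270.4, 266 and 245 in shlacZ, 216 and 207 under sh4, and 203 and 187 under sh8. All 4 knockdown libraries lay below the controls, but the pooled log2 fold change of -0.36 did not pass (limma, adjusted p = 0.16). PSMG4, PSMD5 and PSMD10 had estimates between -0.10 and 0.15.

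Of the related genes listed with the members, some passed in each direction under sh4, where 10.5% of all genes tested were higher and 11.9% were lower, and the small counts in each list are read against those shares. Among 12 other proteasome genes, such as the maturation factor POMP, 1 was higher and 3 were lower, led by the ligase UBE3C (log2 fold change -0.82), AKIRIN2, which imports proteasomes into the nucleus (0.81), and the deubiquitinase UCHL5 (-0.65). Among 9 genes of the NFE2L1 axis, which restores proteasome gene transcription when proteolysis fails, 2 were lower, the protease DDI2 (-0.56) and MAFF (-0.55), and NFE2L1 itself did not pass (0.36, limma adjusted p = 0.12). Among 15 ubiquitin and shuttle genes, 2 were higher and 2 lower, including UBB (-0.48), which encodes ubiquitin.

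Among 12 genes of class I peptide loading, 2 were higher and 1 was lower under sh4, namely the peptide transporter subunit TAP2 (-0.91), the trimming peptidase ERAP1 (0.55) and the chaperone TAPBP (0.55). Among 14 interferon signalling genes, 2 were higher, JAK1 (0.97) and STAT2 (0.59). With 10.5% of all genes higher and 11.9% lower under sh4, counts of this size do not set either list apart. With the pooled hairpins and under sh8, 0 genes of these 5 lists passed.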

How the data were processed

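RNA from 7 libraries of 501Mel cells was depleted of ribosomal RNA and made into stranded libraries. Following the study's methods, adapters were trimmed with Cutadapt, reads were mapped to hg38 with STAR and quantified with Salmon, and the authors passed the matrix to DESeq2. Versions and the strand setting of the counting are not given in the sources used here. The authors deposited 1 table of normalized counts, that is, counts divided by a size factor per library and written with decimal commas. Divided by what 1 read is worth in its library, 100% of values came out whole (tolerance 0.1 read), which gave the reads back, and 0 columns belonged to other samples. A change shared by nearly all transcripts would be removed by the size factors.

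The test was limma 3.58.1 (R 4.3.3) on log2(normalized count + 1) with a variance trend, for genes with a mean of at least 10, adjusted over all 15420. The scale understates changes of low genes. The pooled comparison used 2 levels after the study's design, and the comparisons of single hairpins used a fit with 3 groups. Scripts were tested on simulated data. Coordinates and lengths came from GENCODE 44, which held 21281 (99.9%) of the identifiers. Genes that overlap on 1 or both strands, such as PSMB8 with PSMB9 and PSMA3 with its antisense RNA, and pseudogene copies of PSMC1 may share reads. Catalytic and immunoproteasome subunits are named with all values, other members where they passed, and up to 3 genes of each further list by the largest change under sh4. Members at the end of a range or passing without shlacZ replicate 1, UFD1, POMP, NFE2L1 and the examples PSMA7, PSMB4, PSMD12, PSME1 to PSME4, PSMF1, PSMG2 and PSMG3 were named after their values were seen. The members and lists were chosen with earlier results of these data known. Alternatives were other pseudocounts, minimum means, scalings and models, and leaving out each library. Some genes of the further lists are not reported here.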

Additional observations from a re-analysis of the deposited data

Results flagged for a closer look

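Among the 4 knockdown libraries, 1 library stood apart from the other 3 for 3 of 46 proteasome genes. The gap to the nearest library took 0.880 of the range for PSMA1, 0.898 for PSMA6 and 0.840 for PSME3, in each case because sh4 replicate 2 was the highest. Each is past the 95% critical value for 4 libraries, which chance passes in about 1 in 20 groups. The count of 3 of 46 is near that rate, and the 4 libraries join both hairpins. PSMA6 had normalized counts of 917 and 1321 under sh4 and 958 and 942 under sh8.

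No proteasome gene passed in limma between sh4 and sh8. Of the 62 related genes tested, 6 passed, 2 higher and 4 lower under sh4, beside 3.67% higher and 3.33% lower of all genes tested; they are given as log2 sh4 minus sh8: TAP2 by -0.75 (adjusted p = 0.012), UBE3C by -0.64 (0.020), MAFF by -0.62 (0.040), DDI2 by -0.57 (0.032), UFD1 by 0.59 (0.040) and JAK1 by 0.59 (0.046). UFD1, an adaptor of the p97 segregase, was chosen after its values were seen.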

How the results depend on the processing

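With both hairpins pooled, the count of proteasome genes that passed as lower was 1, and it was 0 without the variance trend and with the replicate block. Over all 15420 genes tested the lower calls fell as well, from 318 to 45 without the trend and to 10 with the block. Without shlacZ replicate 2 and without shlacZ replicate 3 they were 19 and 24. The counts of 0 are read against that loss over all genes. Under sh4 the count of lower genes was 1, and it was 2 with a minimum mean of 50, a pseudocount of 10, upper quartile scaling or the replicate block. Over all genes it was 1840 in the main fit. In these alternatives it was 1818 (of 12050 genes tested), 1851, 1718 and 1764. The count of higher genes under sh4 was 1, and it was 0 without the variance trend, with only the groups compared and with the replicate block, and 2 with quantile normalization. Over all genes the higher calls were 1624 in the main fit, and 1283, 1449, 1612 and 1813 in these alternatives. Under sh8 the count of lower genes was 0, and it was 1 with total scaling, beside 238 and 264 of all genes. Leaving out 1 library gave from 0 to 3 lower genes in the pooled comparison, 1 to 14 under sh4 and 0 to 7 under sh8, each highest value being without shlacZ replicate 1, and 0 to 1 higher genes under sh4. A lone sh4 or sh8 library is assumed to vary like the other groups.

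The replicate numbers were not treated as pairing: same-numbered libraries deviated from their group means with correlations from -0.08 to 0.34. The highest was between replicate 1 of shlacZ and replicate 1 of sh4. Both were lower than the rest of their group for 31 of 31 constitutive 20S and 19S subunits. In groups of 2 the deviations mirror each other, so these correlations are not independent. An effect shared by the libraries numbered 1 was not tested. In the fit with the replicate block, shlacZ replicate 3 has no partner and adds nothing, and PSMG1 had a pooled log2 fold change of -0.77 (limma, adjusted p = 0.14) and PSMD9 0.57 under sh4 (0.056).

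No immunoproteasome gene passed in any alternative, but estimates near 0 changed sign. In the pooled comparison PSMB10 was at 0.0012 with limma-voom, 0.0039 with the replicate block, 0.045 with total scaling and 0.037 with upper quartile scaling, and from -0.28 to 0.24 when 1 library was left out. Under sh8 PSMB10 was at -0.036 with quantile normalization and from -0.18 to 0.33 with 1 library left out, and with 1 library left out PSMB8 ranged from -0.20 to 0.0094 and PSMB9 from -0.81 to 0.22. Under sh4 PSMB10 ranged from -0.37 without shlacZ replicate 1 to 0.14 without shlacZ replicate 2. These 3 genes were left out by the minimum of 50. The planned edgeR fit was not run. Depth limits the immunoproteasome genes, above all PSMB9.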

Other observations

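Antisense and copy genes of members were measured as well. PSMC1P1, a pseudogene copy of PSMC1, was at 0 in all 3 shlacZ libraries, at 23.7 and 8.21 under sh4 and at 0 and 10.9 under sh8. PSMG3-AS1, antisense to PSMG3, had normalized counts of 10.3, 10.5 and 11.3 in shlacZ, 31.6 and 26.9 under sh4 and 22.4 and 31.9 under sh8. Every knockdown library was above every control, as for 10.2% of all genes tested. PSMG3 itself was below every control in each knockdown library, as for 11% of all genes tested. PSMA3-AS1 ranged from 1369 to 2433 over the 7 libraries. These genes were singled out after their values were seen and no test of them is given.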
